A study of Mus musculus with 6 samples.

Results

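Succinate dehydrogenase, its assembly factors and 4 further enzymes of the tricarboxylic acid (TCA) cycle and its cytosolic branch were examined in mouse MTT and MPC cells. The 10 genes, Sdha, Sdhb, Sdhc, Sdhd, Sdhaf1, Sdhaf2, Fh1, Idh1, Idh2 and Mdh2, were chosen as the complex with its assembly factors and as genes in which mutations predispose to pheochromocytoma and paraganglioma (PHEO/PGL) or are known in tumors. Each had 1 probe set that the platform's annotation maps to exactly 1 gene symbol, and they are 10 of 19937 genes tested. Gene expression was measured on 6 Affymetrix Mouse Gene 1.0 ST arrays, 3 of MTT cells and 3 of MPC cells, as log2 signals normalized by the authors with the RMA method. Neither line was treated. MPC is a mouse pheochromocytoma cell line that came from tumors of mice in which Nf1 had been knocked out. The MTT line grew from liver metastases of MPC cells, so both lines carry the Nf1 background and each is 1 line. Cells were grown until they covered 80% of the dish. The methods cover the MTT arrays alone, and for the MPC arrays the line was read from title and cell type. The labels for tissue source and growth do not separate the lines, since they read the same on all 6 samples and the growth label names MTT. For MTT the methods speak of 3 separate cell samples, and for MPC they state nothing. Whether the samples of either line came from separate cultures is not stated, so p-values measure only the spread between these samples, which may be technical. No source used here gives an Sdh genotype for either line.

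Succinate dehydrogenase is respiratory complex II, the only enzyme that belongs both to the TCA cycle and to the electron transport chain of mitochondria. It oxidizes succinate to fumarate and passes the electrons through a flavin and iron-sulphur clusters to ubiquinone. Loss of its activity lets succinate accumulate, which inhibits dioxygenases that use 2-oxoglutarate, among them the prolyl hydroxylases that mark hypoxia-inducible factors (HIF) for destruction. Inherited mutations of the subunits, of SDHAF2 and, more rarely, of fumarate hydratase and MDH2 cause human PHEO/PGL, and those of SDHB are associated with metastatic disease.

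MTT and MPC cells differed in 1 of the 10 genes: Sdhaf2 was 1.16-fold lower in MTT cells, a log2 difference of -0.21 (limma, Benjamini-Hochberg adjusted p over all genes = 0.00698). The other 9 genes did not pass the threshold, an adjusted p under 0.05. Of all genes tested, 7.87% passed, 3.93% higher and 3.94% lower in MTT cells, so 1 of 10 is near the background. The arrays of the lines did not overlap for 6 of the 10 genes, MTT above for Sdha and below for Sdhc, Sdhd, Sdhaf1, Sdhaf2 and Idh2. Of all genes, 27.2% had arrays that did not overlap, 11.7% with MTT above and 15.4% with MTT below. At an unadjusted p under 0.05 there were 4 of the 10 genes (Sdha, Sdhd, Sdhaf2 and Idh2), against 20.5% of all genes. The median log2 difference of the 10 genes was -0.03, against -0.01 for all genes tested.

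Sdha lies on mouse chromosome 13 and Sdhaf2 on chromosome 19, and many genes of both chromosomes differ between the lines. The promoters of these genes are shown because the description below turns on this pair. Each is 250 bases before and 50 bases after the gene's start on the minus strand, from RefSeq on build GRCm38.p6, at chr13:74350191-74350490 and chr19:10525160-10525459. Capitals mark the core of the motif of NRF1, a regulator of nuclear genes for respiration (GCGCA, any base, then GCGC), and CCGGAAG, the core of the motif of ETS factors such as GABPA. Both strands were searched, and no match overlapped another.
Sdha: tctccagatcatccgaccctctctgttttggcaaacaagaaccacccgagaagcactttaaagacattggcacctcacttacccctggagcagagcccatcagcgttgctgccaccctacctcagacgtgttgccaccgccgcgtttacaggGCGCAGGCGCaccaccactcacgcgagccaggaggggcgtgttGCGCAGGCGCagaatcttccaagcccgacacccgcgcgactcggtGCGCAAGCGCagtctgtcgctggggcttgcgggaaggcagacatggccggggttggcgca
Sdhaf2: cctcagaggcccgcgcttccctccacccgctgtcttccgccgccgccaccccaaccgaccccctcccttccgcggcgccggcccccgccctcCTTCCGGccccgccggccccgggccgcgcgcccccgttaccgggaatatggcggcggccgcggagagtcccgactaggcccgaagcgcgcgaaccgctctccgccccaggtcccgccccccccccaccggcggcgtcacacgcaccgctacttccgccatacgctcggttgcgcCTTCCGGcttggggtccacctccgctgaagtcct
The Sdha promoter holds 3 matches to the NRF1 core and none to CCGGAAG, and the Sdhaf2 promoter holds CCGGAAG at 2 places, both as CTTCCGG, and no NRF1 core. Of 32851 promoters of this length, 4.6% hold the NRF1 core, 0.0974% hold it at 3 or more places, and 8.86% hold CCGGAAG. The limit of 3 is the number found in Sdha itself, and the share with CCGGAAG at 2 or more places was not counted. Among the 9 genes with a promoter in the RefSeq table, the NRF1 core was found in Sdha and Sdhd and CCGGAAG in Sdhb, Sdhd, Sdhaf1 and Sdhaf2. The hypoxia response core ACGTG, which 19.6% of promoters hold, was found in Sdha and Sdhaf1. A match describes the letters of the window, and no binding was measured.

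All 10 genes were well measured. Their mean signals stood between the 63.5th percentile of all genes, for Sdhaf1, and the 99.2nd, for Mdh2, and above 7.15, the 95th percentile of 1027 olfactory receptor genes taken as a gauge of unexpressed probe sets after the data were seen. Levels of different genes are not compared, since each probe set has its own response. Pearson's r over all probe sets was 0.9974 to 0.9978 between MTT arrays, 0.9969 to 0.9973 between MPC arrays and 0.9960 to 0.9967 between lines. Of 13 measured chromaffin cell markers, 12 were above the olfactory receptor limit in both lines, Th, which makes the catecholamine precursor dopa, at 13.46 and 13.49. Pnmt, which makes adrenaline, was not, at 6.97 in MTT and 7.08 in MPC cells. The mean log2 signal of the chromaffin list was 11.14 to 11.16 in MTT cells and 11.09 to 11.11 in MPC cells. Of the 13, 3 were higher (Scg2, Slc18a1 and Gata3, log2 differences 0.55, 0.27 and 0.19) and 2 lower (Cyb561 and Chgb, -0.17 and -0.15), or 38.5% against 7.87% of all genes. None of 8 hepatocyte, 7 adrenal cortex, 7 fibroblast, 8 endothelial and leukocyte or 3 Schwann cell markers passed limma's test. Of these, Apoa2, of hepatocytes, and Pecam1, of endothelium, had an unadjusted p under 0.05, with log2 differences of -0.15 and -0.15, and Alb, which defines hepatocytes, was under the limit at 6.32 and 6.28. Above the limit were 2 of the 8 hepatocyte markers (Apoa1 and Apoa2), 2 of 7 of adrenal cortex, 5 of 7 of fibroblasts, 3 of 8 of endothelium and leukocytes and 2 of 3 of Schwann cells. The part of other cell types in the results below was not tested. Array means of the hepatocyte list were 6.50 to 6.56 in MTT and 6.52 to 6.59 in MPC cells.

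**Figure D1:**
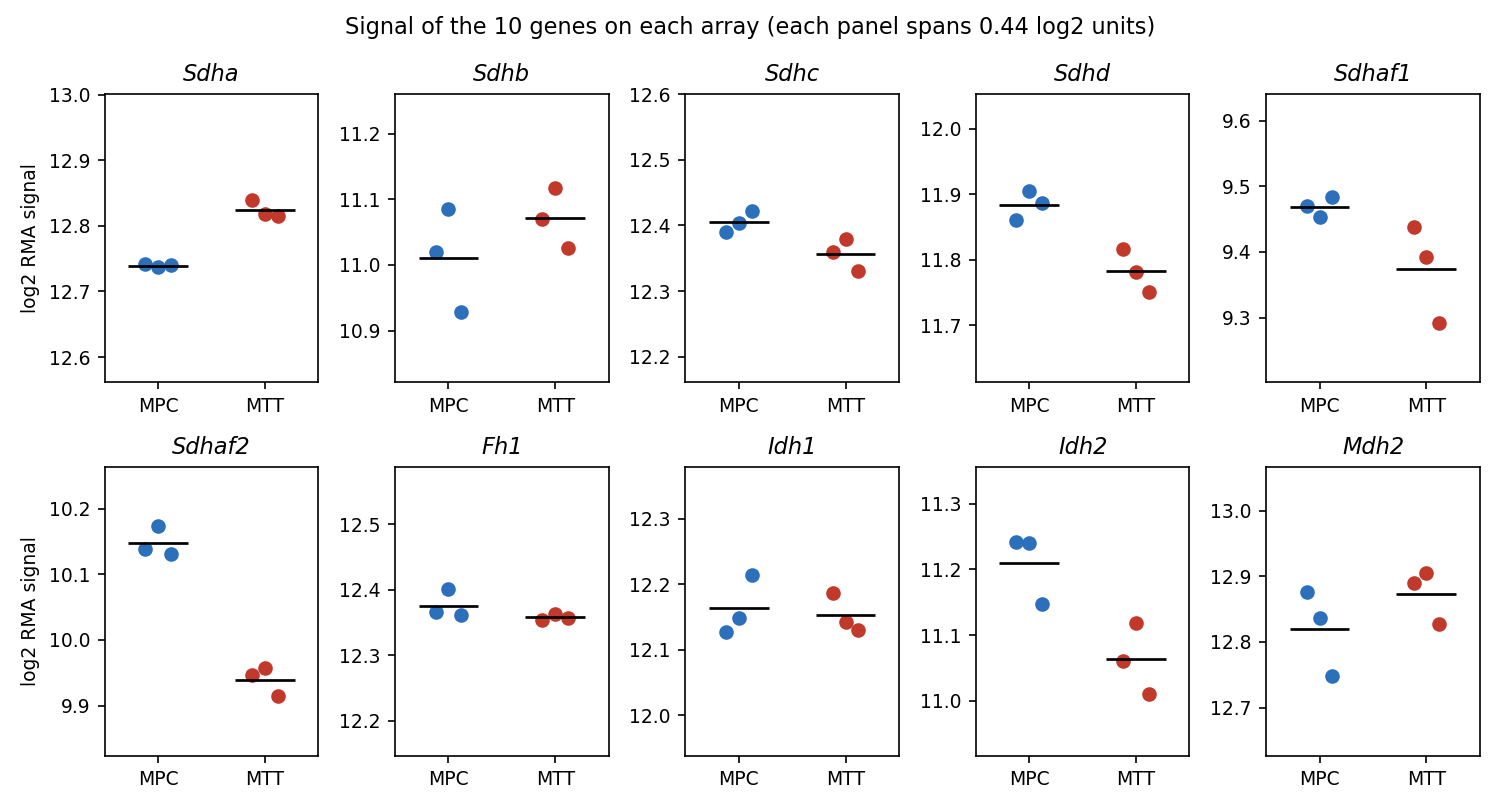
log2 RMA signal (vertical axes) of the 10 genes on the 3 MPC arrays (blue) and the 3 MTT arrays (red). Each point is 1 array, bars are means of 3 and each panel spans the same range of log2 signal. For Sdhaf2 the MTT points lie at 9.91 to 9.96 and the MPC points at 10.13 to 10.17.

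Sdha encodes the flavoprotein, the subunit that binds succinate. Its log2 signals were 12.84, 12.82 and 12.81 on the MTT arrays and 12.74, 12.74 and 12.74 on the MPC arrays. Every MTT array was above every MPC array, and the MPC arrays were almost equal to each other. The log2 difference was 0.08 (standard error 0.03, 95% interval 0.01 to 0.15, limma adjusted p = 0.160). Sdha passed among genes brighter than the median (adjusted p = 0.0438) and under a trend of variance on signal (adjusted p = 0.0128). It also passed with ordinary variances (adjusted p = 0.0254), where its MPC SD of 0.002 counts in full. The median SD of all genes within a line was 0.05. In the other 6 of the 9 repeats under other settings Sdha did not pass. Nor did Sdha pass in the 6 fits that left out 1 array (limma adjusted p 0.220 to 0.334).

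Sdhb encodes the iron-sulphur subunit, which carries electrons from the flavin to the membrane. It read 11.07, 11.12 and 11.03 in MTT cells and 11.02, 11.09 and 10.93 in MPC cells, and the lines overlapped. The log2 difference of Sdhb was 0.06 (95% interval -0.05 to 0.17, limma adjusted p = 0.547). The interval measures only the spread between these samples, which may be technical, and sets no bound on the difference between the lines.

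Sdhc and Sdhd encode the membrane anchors, which hold the ubiquinone site and the heme. Sdhc read 12.36, 12.38 and 12.33 in MTT cells and 12.39, 12.40 and 12.42 in MPC cells. Sdhd read 11.82, 11.78 and 11.75 in MTT cells and 11.86, 11.90 and 11.89 in MPC cells. The MTT arrays of both anchors lay below all MPC arrays. The log2 difference was -0.05 for Sdhc (95% interval -0.12 to 0.03, limma adjusted p = 0.454). It was -0.10 for Sdhd (95% interval -0.18 to -0.02, limma adjusted p = 0.134). Sdhd passed among genes brighter than the median (adjusted p = 0.0363) and under a trend of variance on signal (adjusted p = 0.0205). In the other 7 of the 9 repeats under other settings Sdhd did not pass. Nor did Sdhd pass in any of the 6 fits that left out an array (limma adjusted p 0.167 to 0.312).

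The balance of the flavoprotein and the other 3 subunits was compared within arrays. The log2 signal of Sdha minus the mean of Sdhb, Sdhc and Sdhd was 1.09, 1.06 and 1.11 on the MTT arrays and 0.98, 0.94 and 0.99 on the MPC arrays. This log ratio was higher on all 3 MTT arrays than on any MPC array, by 0.11 on average. The exact two-sided permutation p was 0.10, the smallest that 3 against 3 arrays can give, and 0.20 after adjustment over the 4 log ratios compared, so the difference did not pass. The absolute size of the log ratio depends on the probe sets and has no meaning as a stoichiometry. Other genes above the median signal had a median log2 difference of 0.20 on the chromosome of Sdha. On each of the chromosomes of Sdhb, Sdhc and Sdhd that median was -0.01. What part of the 0.11 belongs to the shift of chromosome 13 was not tested.

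Sdhaf2 encodes the assembly factor needed for covalent attachment of the flavin to the Sdha protein. Its log2 signals were 9.95, 9.96 and 9.91 in MTT cells and 10.14, 10.17 and 10.13 in MPC cells. Every MTT array was lower than every MPC array, with a mean of 9.94 ± 0.02 (SD, n = 3) against 10.15 ± 0.02 (SD, n = 3). The 95% interval of the log2 difference ran from -0.28 to -0.13. Sdhaf2 passed whichever of the 6 arrays was left out (limma adjusted p 0.0173 to 0.0342). The log2 signal of Sdha minus that of Sdhaf2 was 2.89, 2.86 and 2.90 in MTT and 2.60, 2.56 and 2.61 in MPC cells, a difference of 0.29 between the lines. The exact permutation p was 0.10, the smallest possible, and 0.20 after adjustment. Other genes above the median signal had median log2 differences of 0.20 on the chromosome of Sdha and -0.11 on that of Sdhaf2. What part of the 0.29 belongs to these shifts was not tested.

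Sdhaf1, an assembly factor of the LYR motif family that helps load iron-sulphur clusters into Sdhb, read 9.44, 9.39 and 9.29 in MTT cells and 9.47, 9.45 and 9.48 in MPC cells. The MTT arrays were lower but more spread out than the MPC arrays. Its log2 difference was -0.10 (95% interval -0.19 to 0.00, limma adjusted p = 0.265). Of the other 2 assembly factors, which were listed as pathway genes, neither passed. Sdhaf3, which protects the iron-sulphur subunit during maturation, had a log2 difference of -0.15 with arrays that did not overlap (adjusted p = 0.0994). Sdhaf4, which assists the flavinated subunit, had one of -0.10 with arrays that overlapped (adjusted p = 0.610). The log2 differences of all 4 assembly factors were below 0, as were those of 10911 of all 19937 genes, and Sdhaf2 alone passed.

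Fh1 encodes fumarate hydratase, which converts the fumarate made by complex II into malate. It read 12.35, 12.36 and 12.36 in MTT cells and 12.37, 12.40 and 12.36 in MPC cells, with a log2 difference of -0.02 (95% interval -0.09 to 0.05, limma adjusted p = 0.821). Mdh2, the mitochondrial malate dehydrogenase that closes the cycle at oxaloacetate, read 12.89, 12.90 and 12.83 in MTT cells and 12.88, 12.84 and 12.75 in MPC cells. Its log2 difference was 0.05 (95% interval -0.05 to 0.15, limma adjusted p = 0.555). The arrays overlapped for both genes. Fh1 minus Mdh2 within an array differed by -0.07 between the lines (exact permutation p = 0.20).

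Idh1 and Idh2 encode the isocitrate dehydrogenases that use NADP, Idh1 in the cytosol and peroxisomes and Idh2 in mitochondria, and mutant forms of the human enzymes make 2-hydroxyglutarate. Idh1 read 12.19, 12.14 and 12.13 in MTT cells and 12.13, 12.15 and 12.21 in MPC cells, and the lines differed by a log2 value of -0.01 (95% interval -0.10 to 0.08, limma adjusted p = 0.923). Idh2 read 11.06, 11.12 and 11.01 in MTT cells and 11.24, 11.24 and 11.15 in MPC cells. The MTT arrays of Idh2 lay below all MPC arrays, while those of Idh1 overlapped. The log2 difference of Idh2 was -0.15 (95% interval -0.25 to -0.05), the largest of the 10 in absolute value after that of Sdhaf2, with an adjusted p = 0.0898 from limma. Idh2 passed among genes brighter than the median (adjusted p = 0.0232) and under a trend of variance on signal (adjusted p = 0.0145). In 7 of the 9 repeats under other settings Idh2 did not pass. Nor did Idh2 pass in the 6 fits that left out 1 array (limma adjusted p 0.0594 to 0.238). Idh1 minus Idh2 within an array differed by 0.14 between the lines (exact permutation p = 0.20), with log ratios of 1.02 to 1.13 in MTT and 0.89 to 1.07 in MPC cells.

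**Figure D2:**
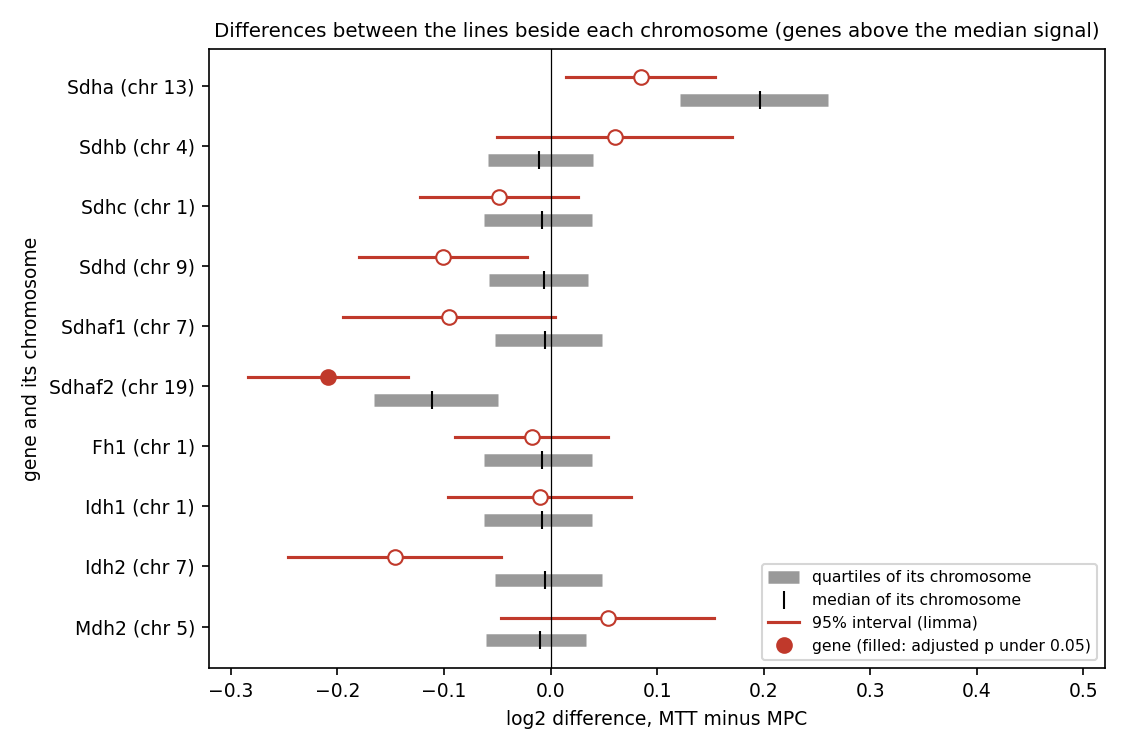
log2 difference between MTT and MPC cells (horizontal axis, MTT minus MPC) of the 10 genes (vertical axis), with 95% intervals from limma in red and a filled point where the adjusted p was under 0.05. Grey bars run between the quartiles of the other genes of the same chromosome above the median signal and black ticks are their medians, 0.20 on chromosome 13 and -0.11 on chromosome 19.

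Since genes of chromosomes 13 and 19 shift between the lines, each gene was set beside its chromosome, as a description with no test. Among genes above the median signal, the other 366 genes of chromosome 13 had a median log2 difference of 0.20 (quartiles 0.12 to 0.26), and 64.3% of the chromosome's genes above the median signal were called higher, against 34% with dim genes included. Sdha, at 0.08, stood at the 15.6th percentile of them, 0.11 below their median. With dim genes included, the median of chromosome 13 was 0.08 and Sdha stood at the 50.3rd percentile, so its place depends on which genes it is set beside. The other 336 genes of chromosome 19 above the median signal had a median of -0.11 (quartiles -0.17 to -0.05), and 29.1% of the chromosome's genes above the median signal were called lower, against 16.4% with dim genes included. Sdhaf2, at -0.21, stood at the 11.6th percentile, 0.10 below their median, and at the 7.27th percentile, 0.15 below the median, with dim genes included. What part of the difference in Sdhaf2 belongs to the shift of its chromosome was not tested. The other 8 genes lie on chromosomes 1, 4, 5, 7 and 9, whose medians were -0.01 with dim genes included. Idh2 stood at the 5.91st percentile of chromosome 7, Sdhaf1 at the 11.7th percentile of the same chromosome and Sdhd at the 13.9th of chromosome 9, again among genes above the median signal. Fh1, Idh1 and Sdhc, all on chromosome 1, stood at the 46.7th, 49.5th and 30.4th percentiles. Sdhb stood at the 83.4th of chromosome 4 and Mdh2 at the 83.2nd of chromosome 5.

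The nearest genes were described in the same way, with no test. Of the 10 nearest tested genes on each side of Sdha, 18 of 20 had a positive log2 difference and 8 were higher by limma, against 3.93% of all genes, with a median of 0.14. Among all 19937 genes, 9026 had a positive difference. Of the 20 around Sdhaf2, 3 had a positive difference, with a median of -0.08, and 1 was lower by limma, which is near the 3.94% of all genes. On its chromosome start side, Ppp1r32, Lrrc10b, Syt7, Dagla and Myrf had log2 differences of -0.02, -0.07, -0.02, -0.21 and 0.05. On the other side Cpsf7, Tmem216, Tmem138, Cyb561a3 and Tkfc had -0.10, -0.01, -0.10, -0.17 and -0.10. Dagla, which makes the endocannabinoid 2-arachidonoylglycerol, fell (limma adjusted p = 0.0140). None of these 20 neighbours had a more negative value than Sdhaf2, which differed from Dagla by less than its standard error of 0.03. The 20 nearest genes above the median signal reached lower than Sdhaf2, to -0.33, with a median of -0.10. With dim genes included, the medians of the 20 nearest genes were between -0.02 and 0.03 for the 8 genes on other chromosomes.

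**Figure D3:**
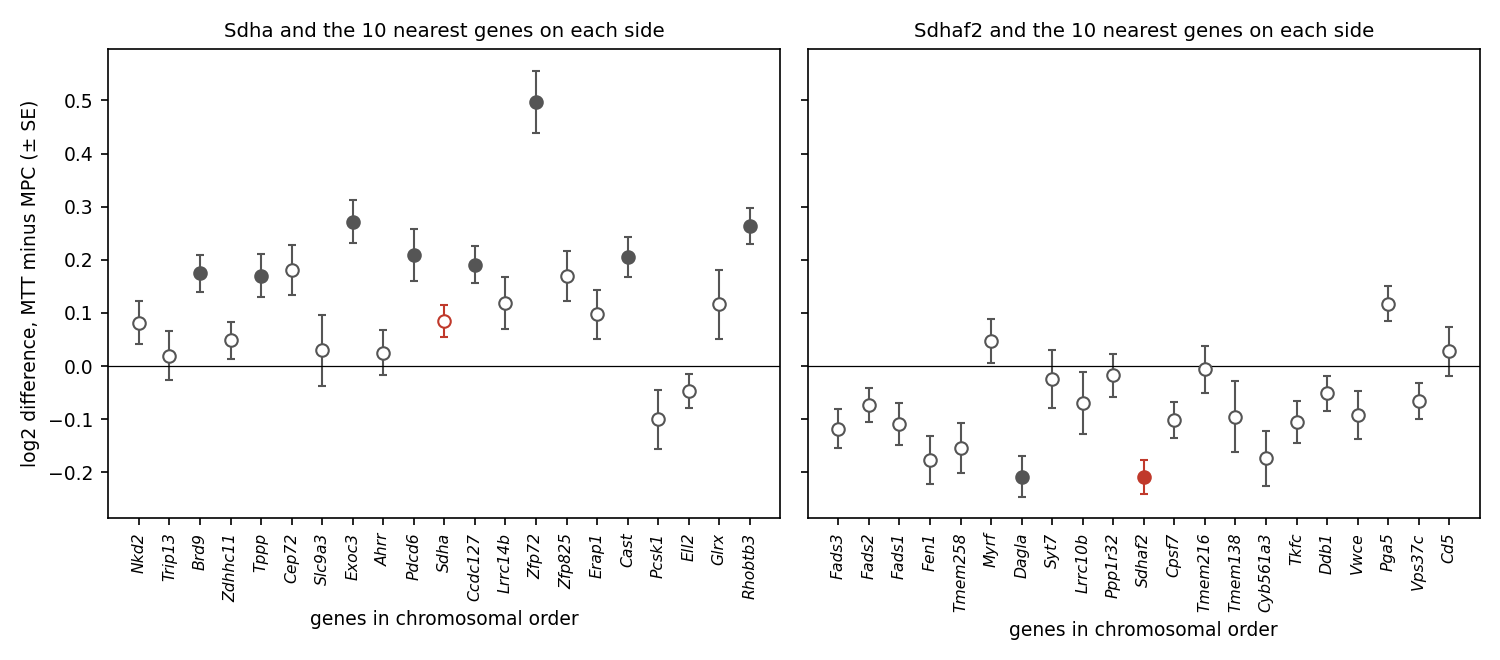
log2 difference between MTT and MPC cells (vertical axis, MTT minus MPC, bars are standard errors from limma) of Sdha, left, and Sdhaf2, right, in red, with the 10 nearest tested genes on each side in chromosomal order (horizontal axis). Filled points passed at an adjusted p under 0.05: 8 of the 20 genes around Sdha and 1 of the 20 around Sdhaf2.

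By Pearson's r over the 6 arrays, the genes above the median signal whose pattern was most like that of Sdhaf2, among 9967, were Zfp518a (0.998), P2rx3 (0.998), Psmb9 (0.997), Lamb2 (0.997) and Atm (0.996). Of these, Zfp518a lies on chromosome 19 and the others on chromosomes 2, 17 and 9. All 5 were lower in MTT cells. The points share the 2 lines, so such values describe mainly the step between the lines.

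The genes around the complex were taken as 9 lists with 106 genes, of which 94 were measured. Of the 94, 3 were higher and 5 lower in MTT cells, or 8.51% against 7.87% of all genes, with a median log2 difference of -0.03. The counts are close to the background, and single genes are described here by their role. Together with the 10 genes, the 3 measured on chromosome 13 (Sdha, Lyrm4 and Isca1) had positive log2 differences and 2 were higher. The 6 on chromosome 19 (Sdhaf2, Hif1an, Pcx, Rfk, Got1 and Psat1) had negative ones and 3 were lower. Of the 95 on other chromosomes, 1 was higher and 3 were lower. For comparison, 34% of all genes of chromosome 13 were higher (64.3% above the median signal). On chromosome 19, 16.4% were lower (29.1% above the median signal). Of all genes tested, 3.93% were higher and 3.94% lower.

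Of 17 other genes of the TCA cycle and pyruvate dehydrogenase, 2 were lower, none was higher and 14 had a log2 difference below 0. The called share was 11.8%, against 7.87% of all genes, and 10911 of all 19937 genes had a difference below 0. The median was -0.07, against -0.01 for all genes. Pcx, on chromosome 19, encodes pyruvate carboxylase, which refills oxaloacetate. It read 8.62, 8.53 and 8.56 in MTT and 8.80, 8.81 and 8.70 in MPC cells and fell by 0.20 on the log2 scale (limma adjusted p = 0.0271). Suclg2, the GTP-forming subunit of succinyl-CoA ligase, which makes the succinate that complex II oxidizes, read 9.999, 9.803 and 9.856 in MTT and 10.09, 10.13 and 10.10 in MPC cells and fell by 0.22 (limma adjusted p = 0.0380). Both calls were lost on leaving out any of 5 of the 6 arrays (adjusted p up to 0.109 for Pcx and 0.122 for Suclg2) and with ordinary variances (adjusted p = 0.111 and 0.160). Of the pyruvate dehydrogenase complex, which feeds acetyl-CoA to the cycle, Pdha1, Pdhb, Dlat and Dld had log2 differences of -0.08, -0.11, -0.11 and -0.13. The MTT arrays lay below the MPC arrays for these 4 subunits, as for 15.4% of all genes, and none of them passed (limma adjusted p 0.0652 to 0.185). Pdhx, a further subunit, had a log2 difference of -0.08 with arrays that overlapped (adjusted p = 0.444). Cs, citrate synthase, at the entry to the cycle, had a log2 difference of 0.02 and Ogdh, of the 2-oxoglutarate dehydrogenase complex, one of -0.01.

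The cofactors of complex II were looked at next. Of 12 measured genes of iron-sulphur cluster assembly, 2 were higher and none was lower, or 16.7% against 7.87% of all genes. Both lie on chromosome 13. Lyrm4, the LYR partner of the cysteine desulphurase, read 11.40, 11.40 and 11.36 in MTT and 11.24, 11.21 and 11.24 in MPC cells and rose by 0.16 (limma adjusted p = 0.0232). Isca1, a scaffold for the later clusters, read 11.49, 11.60 and 11.45 in MTT and 11.23, 11.37 and 11.26 in MPC cells and rose by 0.23 (limma adjusted p = 0.0404). Both differences are near the median of 0.20 for bright genes of that chromosome. Leaving out single arrays ended the call of Lyrm4 for 4 arrays and that of Isca1 for 5 (adjusted p up to 0.0983 and 0.125), and ordinary variances ended that of Isca1 (adjusted p = 0.168). Of the others Hscb, a co-chaperone of cluster transfer, had a log2 difference of 0.13 (adjusted p = 0.122), and Bola3, a late cluster factor, one of -0.11 (adjusted p = 0.275). Of 3 measured genes of FAD supply, 1 was lower (33.3%, against 7.87% of all genes), the riboflavin transporter Slc52a3. It read 8.38, 8.59 and 8.47 in MTT and 8.92, 8.90 and 8.78 in MPC cells, and the difference of -0.39 on the log2 scale (limma adjusted p = 0.00689) passed whichever array was left out but not with ordinary variances (adjusted p = 0.0875). Rfk, riboflavin kinase, on chromosome 19, did not pass, at a log2 difference of -0.14 (adjusted p = 0.0860).

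Of 18 measured genes of quinone-linked dehydrogenases and coenzyme Q synthesis, Coq4, of the coenzyme Q synthesis complex, was higher and none was lower. That is 5.56%, against 7.87% of all genes. Coq4 read 10.13, 10.14 and 10.16 in MTT cells and at most 10.04 in MPC cells, and rose by 0.13 on the log2 scale (limma adjusted p = 0.0425). Leaving out any 1 array ended this call (adjusted p 0.0884 to 0.129). Coq8b and Coq2, both of coenzyme Q synthesis, had log2 differences of 0.12 and 0.07 and did not pass (adjusted p = 0.0739 and 0.267). None of 7 mitochondrial carriers and none of 10 genes of 2-oxoglutarate and 2-hydroxyglutarate handling passed limma's test. Of the carriers 0 had an unadjusted p under 0.05. Slc25a10, the dicarboxylate carrier that moves succinate and malate, had a log2 difference of 0.06. In the other list 1 gene did, Glud1, glutamate dehydrogenase, with a log2 difference of -0.16 and arrays that overlapped (adjusted p = 0.138). The aspartate aminotransferases Got1 and Got2 had log2 differences of -0.06 and 0.07.

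Of 19 measured genes of the HIF axis and of dioxygenases that use 2-oxoglutarate, the enzyme class that succinate inhibits, 2 were lower and none was higher. That is 10.5%, against 7.87% of all genes. Egln3, a HIF prolyl hydroxylase that is itself induced in hypoxia, read 7.82, 7.91 and 8.04 in MTT and 8.58, 8.68 and 8.58 in MPC cells. Its MTT arrays lay far below its MPC arrays, with a log2 difference of -0.69, or 1.61-fold (standard error 0.06, limma adjusted p = 0.000372). Hif1an, the HIF asparagine hydroxylase, on chromosome 19, read 9.77, 9.81 and 9.76 in MTT and 10.03, 10.04 and 9.94 in MPC cells and fell by 0.23 (limma adjusted p = 0.0117). Egln3 passed whichever array was left out, and the call of Hif1an ended without MTT replicate 1 (adjusted p = 0.0513) and with ordinary variances (adjusted p = 0.0649). Hif1a and Egln1 had log2 differences of -0.09 and -0.13 with arrays that did not overlap, and neither passed (adjusted p = 0.183 and 0.150). The DNA demethylases Tet1, Tet2 and Tet3 had log2 differences of 0.01, -0.03 and 0.02.

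None of the 13 other measured susceptibility genes of PHEO/PGL passed limma's test, and 2 had an unadjusted p under 0.05. These were Egln1 and Ret, a receptor tyrosine kinase with a log2 difference of -0.12 (adjusted p = 0.0907). Epas1, which encodes HIF-2α, read 6.95 to 7.13 in MTT and 6.97 to 7.12 in MPC cells, under the olfactory receptor limit of 7.15 in both lines. Vhl, whose protein binds hydroxylated HIF, had a log2 difference of 0.00.

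**Figure D4:**
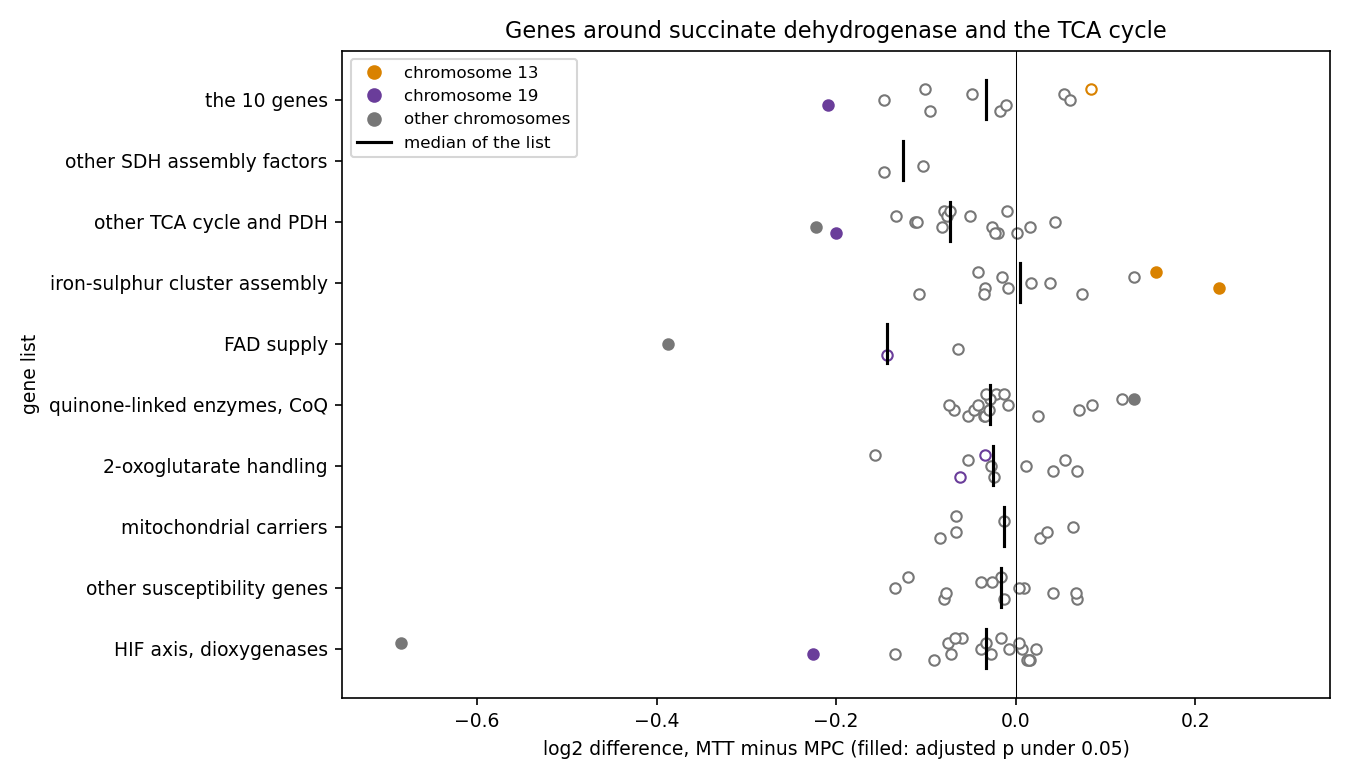
log2 difference between MTT and MPC cells (horizontal axis, MTT minus MPC) of each measured gene of the 10 genes and the 9 lists around them (vertical axis). Filled points passed at an adjusted p under 0.05, colours mark chromosomes 13 and 19 and black lines are list medians. Filled points of chromosome 13 lie to the right of 0, those of chromosome 19 to the left, and Egln3 is the leftmost point at -0.69.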

How the data were processed

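The authors deposited log2 signals after RMA (background subtraction, quantile normalization and probe set summary) in Partek and R per the methods. Expression Console and RMA appear in the submitters' processing notes. Their versions and the genome build were not given in the sources used here. The Z-scores that the methods mention are not part of the deposited values.

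Of 34760 probe sets, 21640 had 1 gene symbol, 1321 several and 11799 are not named here. Symbols were updated through RefSeq of GRCm38.p6, which matched 21553, and was used for names, chromosomes, promoters and gene order. Of several probe sets the brightest was used (954 genes). Lines were compared with limma 3.58.1 in R 4.3.3, with the data.table package (version 1.17.8), and figures in Python 3.11.15 with matplotlib 3.10.9 and pandas 2.3.3. The test was two-sided with Benjamini-Hochberg adjustment over 19937 genes and a threshold of 0.05. The fit was tested on simulated data. Log ratios within an array were compared with exact permutation tests. On an array the number of replicates limits the precision.

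The 10 genes and the lists were chosen with earlier results of these data known. Named are the 10 genes, list genes past the threshold, up to 3 others of a list with the smallest p, the 5 nearest genes on each side of a gene that passed and the 5 genes most like that with the smallest p. Cs, Ogdh, Pdha1, Vhl, Epas1, Pdhx, the Tet genes and the cell type markers fall outside this rule and were named after their values were seen. The fit was repeated after cyclic loess or median centring, with ordinary variances or a trend of variance on signal, with blocks by replicate number, over averaged or single probe sets, among genes above the median signal, without genes of chromosomes 13 and 19, and without each array.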

Additional observations from a re-analysis of the deposited data

How the results depend on the processing

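The call of Sdhaf2 held in all 9 alternatives and all 6 fits without 1 array (adjusted p up to 0.0342). With ordinary variances 824 genes passed (428 higher, 396 lower in MTT cells), 2 of the 10 genes (1 higher, Sdha, log2 difference 0.084, adjusted p = 0.0254) and 3 of the 94 pathway genes (1 lower). With a mean-variance trend 2416 of all 19937 genes passed (1302 lower), 4 of the 10 (1 higher, 3 lower) and 16 pathway genes (13 lower). The same 4 of the 10 passed among genes above the median signal. There 2207 genes in all passed (1012 higher, 1195 lower), out of Sdhaf2 and 9967 others, and 15 pathway genes (11 lower). In these 2 settings Sdha kept a log2 difference of 0.084 (adjusted p = 0.0128 and 0.0438), Sdhd one of -0.10 and Idh2 one of -0.15. Over all probe sets 942 passed (506 higher, 436 lower) and 2 pathway genes (0 higher, 2 lower, Egln3 and Slc52a3). After median centring the calls of Coq4 and Pcx ended (adjusted p = 0.0646 and 0.0513). Without genes of chromosomes 13 and 19 other than Sdha and Sdhaf2, 471 genes were higher and 3 pathway genes passed (0 higher, 3 lower), fewer in part by construction. Coq4, on chromosome 2, stayed in that fit and its call ended (adjusted p = 0.0509). Without 1 array, 891 to 1276 genes passed (462 to 617 higher, 429 to 659 lower) and 3 to 5 pathway genes (0 to 1 higher, 3 to 4 lower). The log2 difference of Idh1 was -0.028 to 0.015 in these fits and changed sign without MTT replicate 3 or MPC replicate 3. Relative to the median of its chromosome Sdha moved from 0.00 to -0.11 and Sdhaf2 from -0.15 to -0.10 when only genes above the median signal were counted. Otherwise the cause was not tested. The replicate numbers of the titles are not known to pair samples: same-numbered arrays deviated together with r of 0.12, 0.07 and 0.25, and each array correlated best with its own number. With the replicate block 1501 genes passed, Sdhaf2 among them (adjusted p = 0.0160), and of the pathway genes 6, Coq4 and Suclg2 having ended (adjusted p = 0.0719 and 0.0540).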
